A study of Homo sapiens with 7 samples.

Results

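Human chromosome 19 carries 240 protein-coding genes whose symbols are ZNF followed by digits, among the 20056 protein-coding genes of the RefSeq table used here. They were chosen by a rule on symbol and chromosome that used no measured value, though earlier results of these data were known. Peaks of N6-methyladenosine (m6A), a modification of adenosine within mRNA, were assigned to them by Ensembl gene ID, gene span and strand. At least 1 peak in any library was held by 135 of the 240 (56.25%), against 47.7% of all protein-coding genes. The share was 52.9% in the other protein-coding genes of chromosome 19 and 78.9% in ZNF genes on other chromosomes.

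The peaks come from HEK-293T, a human embryonic kidney cell line that carries the SV40 large T antigen, in a comparison of a chemical and an antibody method. In m6A-ORL, RNA fragments met NO/O2, then TDO and then the probe BA, and the labelled fragments were pulled down with streptavidin and freed by DTT. In MeRIP, fragments were captured with an antibody to m6A. Each method has 2 captured libraries: m6A-ORL replicate 1 is labelled total RNA, while m6A-ORL replicate 2 and both MeRIP replicates are labelled polyA RNA. RNA type and replicate therefore cannot be told apart within m6A-ORL. No agent was given to the cells in any group. Nothing states that the replicates are separate cultures, so a p-value here covers only the spread among 4 libraries, which may be technical. The lists hold no RNA levels: a gene without a peak may lack m6A or lack RNA, and these cannot be told apart. The identity of the cells could not be checked against marker levels for the same reason.

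Most ZNF genes encode proteins with tandem C2H2 zinc fingers, and the whole finger array is usually encoded in the final, long exon. Many also carry a KRAB domain, which recruits the corepressor TRIM28 and, through it, the histone methyltransferase SETDB1 and HP1 proteins to the DNA sites the fingers bind. KRAB zinc finger proteins are best known for silencing retroelements, and their genes multiplied by tandem duplication into clusters, most of which lie on chromosome 19. Close paralogs share sequence, and the treatment of reads matching more than 1 place is not stated in the sources used here.

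The starts of members that held a peak are shown, since the methods differed in how many of them they listed. A peak lay on the first 50 transcribed bases of a RefSeq start in 19 members: 3 in m6A-ORL replicate 1, 0 in m6A-ORL replicate 2, 14 in MeRIP replicate 1 and 17 in MeRIP replicate 2. The same 14 members had such a peak in both MeRIP lists. Of the 210 members with a RefSeq promoter, this is 1.43% and 0% by m6A-ORL and 6.67% and 8.10% by MeRIP, against 4.99% and 2.88% by m6A-ORL and 7.29% and 7.34% by MeRIP in 15633 other protein-coding genes. By MeRIP the members thus lay near the other genes, and by m6A-ORL below them, on counts of 3 and 0. The sequences below are the transcribed strand from RefSeq (GRCh38.p14), 5′ to 3′, with 60 bases before the start in lower case and the first 30 transcribed bases in capitals. ZNF653 had a start peak in m6A-ORL replicate 1 and in both MeRIP lists, ZNF440 and ZNF8 in m6A-ORL replicate 1 alone, and the other 5 in both MeRIP lists alone. The peaks of ZNF440 (11814314 to 11814374) and ZNF8 (58278985 to 58279105) begin past the 30 printed bases. The sequences printed for these genes therefore hold no base of their peaks.
ZNF653 (chr19:11505810-11505899, minus strand): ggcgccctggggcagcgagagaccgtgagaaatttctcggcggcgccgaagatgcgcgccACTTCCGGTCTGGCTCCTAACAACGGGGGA
ZNF440 (chr19:11814213-11814302, plus strand): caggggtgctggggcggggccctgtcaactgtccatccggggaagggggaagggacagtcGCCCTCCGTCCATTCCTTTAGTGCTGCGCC
ZNF8 (chr19:58278895-58278984, plus strand): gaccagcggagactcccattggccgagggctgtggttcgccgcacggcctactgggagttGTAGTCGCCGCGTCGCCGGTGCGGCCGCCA
ZNF865 (chr19:55605587-55605676, plus strand): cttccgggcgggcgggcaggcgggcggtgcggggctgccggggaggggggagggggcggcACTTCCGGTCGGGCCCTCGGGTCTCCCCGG
ZNF787 (chr19:56121266-56121355, minus strand): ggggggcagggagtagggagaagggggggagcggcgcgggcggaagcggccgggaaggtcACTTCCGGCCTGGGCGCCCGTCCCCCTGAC
ZNF574 (chr19:42076106-42076195, plus strand): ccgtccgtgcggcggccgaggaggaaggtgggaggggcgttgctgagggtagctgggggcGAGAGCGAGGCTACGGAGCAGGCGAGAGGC
ZNF526 (chr19:42220252-42220341, plus strand): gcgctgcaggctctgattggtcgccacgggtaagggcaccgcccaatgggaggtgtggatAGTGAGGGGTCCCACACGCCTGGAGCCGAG
ZNF497 (chr19:58362722-58362811, minus strand): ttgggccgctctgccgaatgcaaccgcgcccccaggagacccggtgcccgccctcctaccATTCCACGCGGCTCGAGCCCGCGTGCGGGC

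The letters CTTCCGG follow directly on the first transcribed base of ZNF653, ZNF865 and ZNF787, and they were chosen as a motif after these sequences were seen. In windows running from 250 bases before to 50 bases after the start, searched on both strands, CTTCCGG stood in 92 of the 210 members with a RefSeq promoter (43.8%). It stood in 13.4% of the other protein-coding genes of chromosome 19 and in 14.2% of 15843 promoters of all protein-coding genes. Members with any peak held it in 41.0% of 122 promoters and members without a peak in 47.7% of 88. Among the 19 members with a start peak, 5 held it, so it did not mark the starts with a peak. The TATA box letters TATAAA stood in 5 of the 210 (2.38%), against 8.0% of the other chromosome 19 genes and 9.75% of all. GGAC, searched on the transcribed strand, stood in the first 50 transcribed bases of 16.2% of members and 19.7% of all protein-coding genes. These are matches of letters, which show no binding and no modified base.

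Antibody peaks were found in about as many members in both replicates, while the 2 chemical libraries differed widely. Of the 240 members, 68 (28.3%, exact 95% binomial interval 22.7 to 34.5) had a peak in m6A-ORL replicate 1 and 25 (10.4%, 6.86 to 15.0) in m6A-ORL replicate 2. In MeRIP, 124 (51.7%, 45.1 to 58.1) had a peak in replicate 1 and 125 (52.1%, 45.6 to 58.6) in replicate 2. The background over all 20056 protein-coding genes was 25.4% in m6A-ORL replicate 1, 19.5% in m6A-ORL replicate 2, 38.1% in MeRIP replicate 1 and 37.4% in MeRIP replicate 2. The members therefore lay near the background in m6A-ORL replicate 1, below it in m6A-ORL replicate 2 and above it in both MeRIP lists. The intervals treat genes as independent and cover counting error only.

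The mean share of members with a peak was 19.4% ± 12.7 by m6A-ORL and 51.9% ± 0.295 by MeRIP (SD, n = 2 each), a difference of -32.5 percentage points. The 2 groups did not overlap, and the exact two-sided permutation p was 0.33, the smallest that 2 against 2 libraries allow. The whole lists differ in length in the same direction, with 11022 and 7661 peaks by m6A-ORL and 20760 and 20216 by MeRIP. Read depth is unknown. With each list cut by its deposited score to 7661 peaks, 52 and 25 members had a peak by m6A-ORL and 50 and 53 by MeRIP, a difference of -5.42 points (exact two-sided permutation p = 0.67). At equal length m6A-ORL replicate 2 alone stood apart, at 10.4% of members, beside 21.7%, 20.8% and 22.1% in m6A-ORL replicate 1 and MeRIP replicates 1 and 2.

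**Figure D1:**
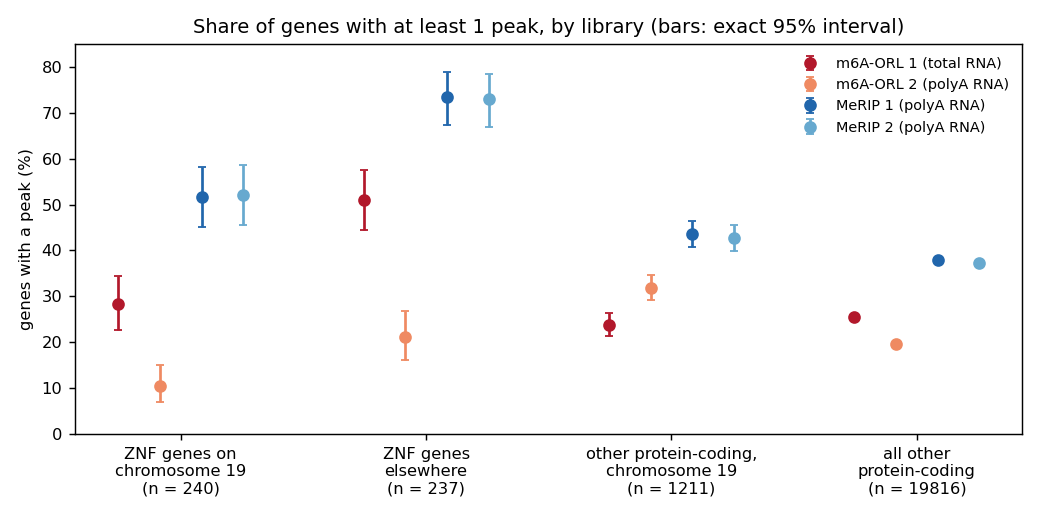
Percent of genes with at least 1 peak (vertical axis) in each of the 4 libraries, for the chromosome 19 ZNF genes and 3 comparison sets, with exact 95% binomial intervals. The members range from 10.4% in m6A-ORL replicate 2 to 52.1% in MeRIP replicate 2, and they lie below the other ZNF genes in every library.

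Set against genes of other kinds, the position of the members depended on the library. Minus all 19816 other protein-coding genes, the members' share was 2.93 and -9.21 points by m6A-ORL, against 13.7 and 14.9 points by MeRIP. The difference between the method means was -17.4 points (exact two-sided permutation p = 0.33), and at equal list length it was -3.12 points (exact two-sided permutation p = 1). The MeRIP excess was -0.932 and 0.374 points at equal length, and 1.15 and -1.35 points with only the better-scored peaks of each list. Both alternatives drop weakly scored peaks, so list length and score cannot be told apart here. Minus the 1211 other protein-coding genes of chromosome 19, the members stood at 4.55 and -21.5 points by m6A-ORL, against 8.07 and 9.31 points by MeRIP. The MeRIP sign turned at equal list length, to -6.99 and -6.16 points, and with the better-scored peaks, to -4.46 and -7.54 points. The 237 ZNF genes on other chromosomes had more peaks than the members in every list: 51.1% and 21.1% had a peak by m6A-ORL, and 73.4% and 73.0% by MeRIP. The members' shortfall against them was 22.7 and 10.7 points by m6A-ORL and 21.8 and 20.9 points by MeRIP, and the values of the 2 methods overlapped (difference of the means 4.63 points, exact two-sided permutation p = 1).

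Far fewer members were shared by the m6A-ORL replicates, of total and polyA RNA, than by the MeRIP replicates. The number shared cannot exceed the 25 members with a peak in m6A-ORL replicate 2, of which 17 also had one in replicate 1. Over all protein-coding genes, 2315 of 3914 did so. Peaks in both m6A-ORL lists were found for 17 members (7.08%, background 11.5% of all protein-coding genes) and in both MeRIP lists for 117 (48.75%, background 35.2%). All 4 lists held a peak in 16 members (6.67%, background 9.69%). Both MeRIP lists and neither m6A-ORL list did so in 49 members (20.4%, background 11.2%). Of the ZNF genes on other chromosomes, 18.1% had this last pattern, close to the members. A peak in both MeRIP lists was found in 69.2% of them, in both m6A-ORL lists in 16.0% and in all 4 lists in 15.2%. No member had peaks in both m6A-ORL lists and in neither MeRIP list (background 1.35%). The most frequent mixed pattern, with 46 members, was a peak in m6A-ORL replicate 1 and both MeRIP lists but not in m6A-ORL replicate 2. Leaving out m6A-ORL replicate 2 therefore raised the number with a peak in every remaining list to 62, while leaving out m6A-ORL replicate 1 gave 22. A peak by m6A-ORL and none by MeRIP was found in 3 members: ZNF260 and ZNF420 in replicate 1 and ZNF414 in replicate 2, with 1 peak each. No background over all protein-coding genes stands beside this count or the counts of 46, 62 and 22, so they describe the members alone. These 3 genes are named here because of their pattern. Of the 105 members without an assigned peak, 4 (ZNF28, ZNF600, ZNF813 and ZNF845) overlap peaks that could not be given to a single gene.

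Members that carried peaks usually carried few. The number of peaks per member with a peak averaged 1.56 and 1.60 by m6A-ORL and 2.15 and 2.02 by MeRIP, and the most in 1 member was 5 and 4 by m6A-ORL and 6 in each MeRIP list. In all, the lists held 106 and 40 member peaks by m6A-ORL, and 267 and 253 by MeRIP. The members supplied 0.962% and 0.522% of all m6A-ORL peaks, against 1.29% and 1.25% of all MeRIP peaks. Members with a peak in m6A-ORL replicate 2 were shorter: their median gene span was 13182 nt, beside 22254 nt in m6A-ORL replicate 1, 20243 nt and 21228 nt in the MeRIP lists, and 29040 nt in members without any peak.

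Within the gene, peaks lay far toward the 3′ end. Positions were measured on the genomic span in the direction of transcription, introns included, because exon annotation was not used here. Peak midpoints fell in the final 10% of the span for 40.6% (43 of 106) and 37.5% (15 of 40) of m6A-ORL peaks, and for 34.1% (91 of 267) and 33.6% (85 of 253) of MeRIP peaks. Means were 39.0% ± 2.17 by m6A-ORL and 33.8% ± 0.343 by MeRIP (SD, n = 2 each; difference 5.19 points, exact two-sided permutation p = 0.33). That direction turned for the final 20% of the span, at -0.640 points (exact two-sided permutation p = 1), so no difference between the methods is drawn from it. The final 10% held similar shares of the peaks in all other protein-coding genes, 36.2% and 28.5% by m6A-ORL and 38.0% and 37.9% by MeRIP.

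At the other end of the gene the members had few peaks. Only 4.72% and 2.5% of member peaks by m6A-ORL, and 4.12% and 4.74% by MeRIP, had their midpoint in the first 10%. In all other protein-coding genes these shares were 16.6% and 18.9% by m6A-ORL and 14.7% and 15.1% by MeRIP, above the members' value in each of the 4 libraries. The ZNF genes on other chromosomes lay between, with 6.96% and 10.8% by m6A-ORL and 9.19% and 9.83% by MeRIP. Within 300 nt of the start the members held 4.72% and 2.5% of their peaks by m6A-ORL and 3.75% and 4.35% by MeRIP. All other protein-coding genes held 10.6% and 10.5% by m6A-ORL and 7.08% and 7.19% by MeRIP, again above the members in each library. The other ZNF genes held 1.47% and 5.41% by m6A-ORL and 3.06% and 3.93% by MeRIP. Those shares lay below the members' in every library but m6A-ORL replicate 2. In nucleotides, 74.5% and 77.5% of member peaks by m6A-ORL and 74.5% and 73.1% by MeRIP lay within 5000 nt of the 3′ end. The corresponding shares were 48.0% and 60.8% by m6A-ORL and 52.5% and 53.3% by MeRIP in the other ZNF genes, and 65.0% and 54.9%, and 62.2% and 64.1%, in the other genes of chromosome 19. The members' share was the higher one in every library at this distance. Within 2000 nt it was 36.8% and 57.5% by m6A-ORL and 37.8% and 37.5% by MeRIP in the members, against 46.9% and 34.0% by m6A-ORL and 42.2% and 43.7% by MeRIP in the other genes of chromosome 19, where it was higher in 3 of the 4 libraries. Peaks of 1 gene are not independent, and these shares were not tested.

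**Figure D2:**
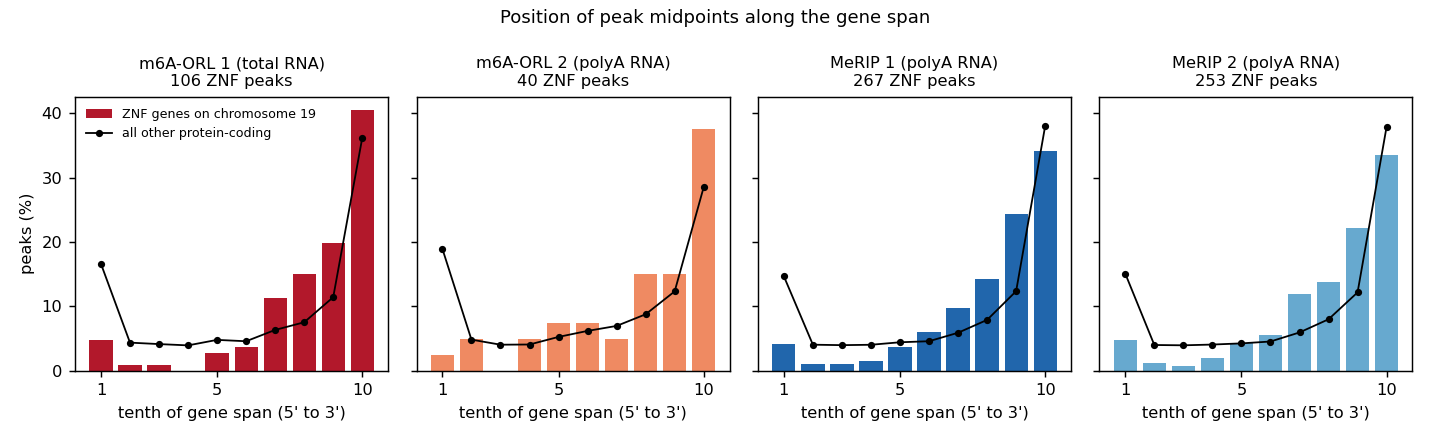
Percent of peaks (vertical axis) in steps of 10% of the gene span from the 5′ to the 3′ end (horizontal axis), for each library, in the chromosome 19 ZNF genes and in all other protein-coding genes. Peaks of the ZNF genes gather toward the 3′ end, and the first 10% holds 2.5% to 4.74% of them.

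Spliced peaks placed some splice junctions, though not the last one of each gene. A peak listed in several blocks skips an intron, and 0.943% and 5.0% of member peaks by m6A-ORL and 7.12% and 7.11% by MeRIP were of this kind. In the whole lists these shares were 9.88% and 27.8% by m6A-ORL and 16.9% and 16.3% by MeRIP, higher than in the members in each library. In the 23 members with such a peak, 91.7% (22 of 24) and 87.0% (20 of 23) of m6A-ORL peaks lay wholly beyond the most 3′ splice junction seen in any peak, as did 52.3% (34 of 65) and 48.3% (28 of 58) of MeRIP peaks. Further junctions may lie beyond the last one seen, and it lay within 5000 nt of the 3′ end in only 11 of the 23 (median 5416 nt), so these shares do not describe the final exon. The junction seen lay 38107 nt from the 3′ end in ZNF567 and 156430 nt in ZNF536. In ZNF574 that junction ended at position 42078587, 2966 nt from the 3′ end, and 10 of 12 peaks lay beyond it. In ZNF146, whose protein is made almost wholly of zinc fingers and lacks a KRAB domain, the block began at 36235659, 3110 nt from the 3′ end, with 6 of 8 peaks beyond. The spliced MeRIP peaks themselves count as not beyond, which lowers the MeRIP shares.

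Both methods often marked the same stretch of RNA. Of the member peaks of m6A-ORL replicate 1, 67% (71 of 106, exact 95% binomial interval 57.2 to 75.8) shared at least 1 nt, on the same strand, with a peak in MeRIP replicate 1. The number was the same for MeRIP replicate 2, but each list was counted separately and the peaks need not be the same. For m6A-ORL replicate 2 the share was 62.5% (25 of 40, 45.8 to 77.3) for each MeRIP list counted separately. In all other protein-coding genes the shares were 60.7% and 58.5% for m6A-ORL replicate 1 and 45.5% and 43.8% for replicate 2. With only genes that had a peak in both lists compared, the replicate 1 shares were 71.0% and 69.6% in members. In the other genes they were then 70.9% and 69.6%, so replicate 1 showed no excess in members. For replicate 2 they were 67.6% and 64.1% in members, against 55.5% and 54.5% in the other genes. The 2 chemical libraries seldom coincided: 5.66% (6 of 106) of replicate 1 peaks were overlapped by replicate 2 and 12.5% (5 of 40) the reverse, against 81.3% (217 of 267) and 83.0% (210 of 253) between the MeRIP replicates. In all other protein-coding genes the shares were 15.1% and 18.3% between the m6A-ORL libraries and 83.8% and 86.5% between the MeRIP libraries, so the low overlap of m6A-ORL was not confined to the members. In the 17 members with peaks in both m6A-ORL lists, 6 of 29 replicate 1 peaks (20.7%) and 5 of 25 replicate 2 peaks (20%) overlapped, against 29.5% and 28.6% in the other genes common to both lists.

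Joining overlapping peaks of all lists gave 336 sites in the 135 members. Both methods contributed to 81 sites in 60 members, m6A-ORL alone to 42 sites in 32 members, and MeRIP alone to 213 sites in 114 members. The largest groups were 130 sites in both MeRIP lists alone and 53 in m6A-ORL replicate 1 and both MeRIP lists. These site counts have no background over all protein-coding genes beside them, so they describe the members alone. The whole MeRIP lists were also longer, with 20760 and 20216 peaks against 11022 and 7661 by m6A-ORL. Sites with peaks from all 4 lists were found once each in 8 members: ZNF121, ZNF574, ZNF526, ZNF579, ZNF865, ZNF581, ZNF460 and ZNF497. In several of them a long MeRIP peak bridges m6A-ORL peaks that do not overlap each other.

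ZNF865 had a long MeRIP peak of this kind, although one pair of its m6A-ORL peaks also overlapped. It spans chr19:55605647-55617269 on the plus strand and had 2 and 4 m6A-ORL peaks, against 1 peak in each MeRIP list. The MeRIP peak was the same in both lists, with 3856 nt in 2 blocks from 55605554 to 55617269 and a deposited score of 0, the lowest there is. It joins the start, where CTTCCGG stands, to the 3′ end of the gene. All 6 m6A-ORL peaks, of 61 to 420 nt, lay in its second block, and the nearest to the 3′ end, 55616881 to 55617120 in replicate 1 and 55616701 to 55617120 in replicate 2, ended at the same base.

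ZNF579 and ZNF526 had MeRIP peaks of like breadth. In ZNF579 (chr19:55576774-55580848, minus strand) 1 and 3 m6A-ORL peaks lay inside single MeRIP peaks of 2273 and 2243 nt. ZNF526 (chr19:42220312-42228201, plus strand) had 2 and 1 m6A-ORL peaks, against 3 and 3 by MeRIP, the longest being 2121 and 2151 nt. One MeRIP peak of ZNF526 in each list, 42220271 to 42220510, lay on the start printed above, where no m6A-ORL peak was listed.

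ZNF574 (chr19:42068477-42081552, plus strand) had 2 and 1 m6A-ORL peaks, against 5 and 4 by MeRIP. Its m6A-ORL peaks at 42080146 to 42080355 in replicate 1 and 42080116 to 42080385 in replicate 2 shared their midpoint, 1301 nt from the 3′ end. The MeRIP peaks over the same stretch, of 958 and 1168 nt, ended at 42080355 in both lists. A MeRIP peak also began at 42076170 in both lists, just after the internal start printed above, which is not the outermost start of the gene. The 2 methods thus shared their peaks near the 3′ end of ZNF574, and only MeRIP had one at a start.

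ZNF121 (chr19:9560329-9584504, minus strand) had 4 and 1 m6A-ORL peaks, against 2 and 2 by MeRIP. Its MeRIP peaks of 1230 and 1260 nt, each in 2 blocks between 9565895 and 9567692, carried a deposited score of 0. The m6A-ORL replicate 1 peak at 9566495 to 9567094 and the replicate 2 peak at 9566824 to 9567004 lay inside that interval, with midpoints 6466 and 6585 nt from the 3′ end of the gene span. A separate short peak, 249 nt from the 3′ end in m6A-ORL replicate 1 and 264 nt in both MeRIP lists, was missing from m6A-ORL replicate 2.

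ZNF460 (chr19:57279982-57294069, plus strand) had the most m6A-ORL replicate 1 peaks of any member, with 5 and 1 by m6A-ORL, against 3 and 4 by MeRIP. They ran from 57290812 to 57293382, and the longest had 868 nt. The 1 peak of replicate 2, 57292545 to 57292724, fell in the same stretch, as did each MeRIP peak. ZNF497 (chr19:58354357-58362751, minus strand) had 2 and 1 m6A-ORL peaks, against 3 and 4 by MeRIP. Both MeRIP lists held a 960-nt peak from 58354357, the 3′ end of ZNF497, to 58355316, and an m6A-ORL peak of each replicate lay within it at different positions.

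The remaining members with a peak in all 4 lists were more modest or less certain. ZNF784 had 1 and 1 peaks by m6A-ORL and 2 and 2 by MeRIP. ZNF584 had 1 and 2 peaks by m6A-ORL and 4 and 4 by MeRIP. ZNF581 had 1 and 3 by m6A-ORL and 5 and 4 by MeRIP, but its span overlaps that of ZNF580 on the same strand, so some of its peaks may belong to ZNF580. The other 6 are ZNF791, ZNF431, ZNF283, ZNF175, ZNF628 and ZNF805.

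Some members with many MeRIP peaks had none by m6A-ORL in either library. ZNF564 (chr19:12525373-12551482, minus strand) had 4 and 4 MeRIP peaks, with midpoints 329 to 2138 nt from its 3′ end. ZNF101 had 4 and 3, and ZNF561, ZNF850 and ZNF132 had 3 and 4 each.

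**Figure D3:**
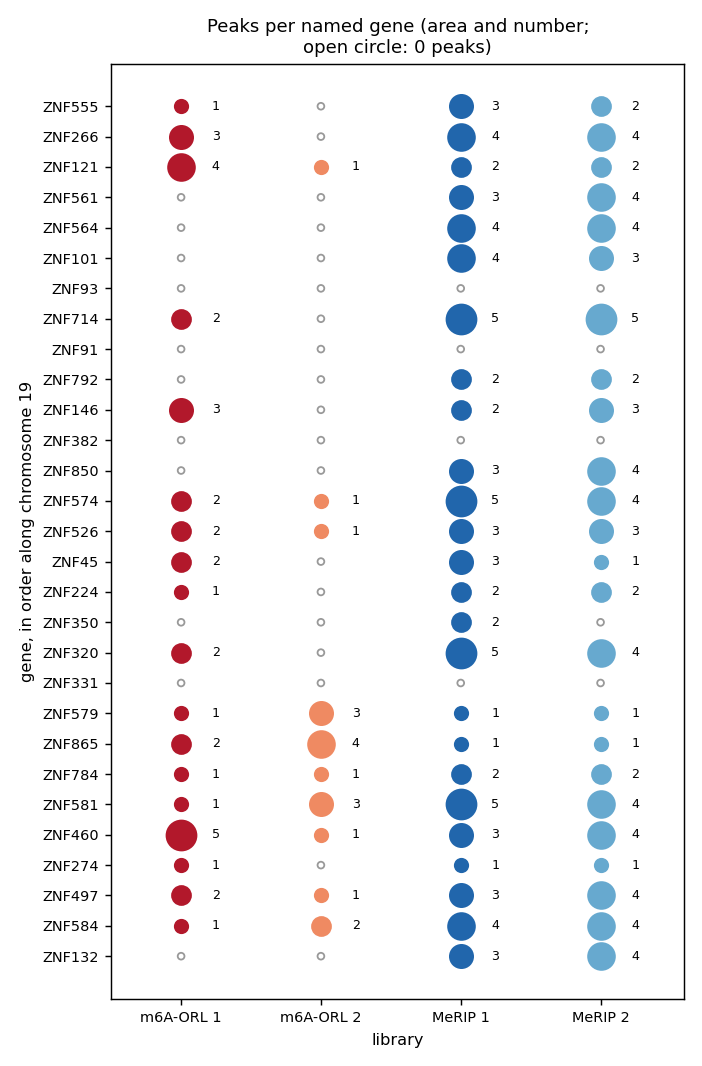
Number of peaks in each of the 4 libraries (columns) for the named chromosome 19 ZNF genes (rows), with the m6A-ORL libraries left of the MeRIP libraries. ZNF460 and ZNF121 lead m6A-ORL replicate 1 with 5 and 4 peaks, and 4 of the genes known from retroelement, imprinting or repressor studies have 0 in every library.

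Of the 8 members chosen for their known function, 3 and 0 had a peak by m6A-ORL (37.5% and 0%) and 4 and 3 by MeRIP (50% and 37.5%), beside 28.3% and 10.4% by m6A-ORL and 51.7% and 52.1% by MeRIP of all members. ZNF274, which recruits SETDB1 to the 3′ ends of other ZNF genes, had 1 and 0 peaks by m6A-ORL and 1 and 1 by MeRIP. Its MeRIP peak, 58212783 to 58213352 in both lists, lay 494 nt from the 3′ end of ZNF274, and the m6A-ORL peak was inside it. ZNF224, a KRAB repressor, had 1 and 0 peaks by m6A-ORL and 2 and 2 by MeRIP. ZNF350, a partner of BRCA1, had 0 and 0 by m6A-ORL and 2 and 0 by MeRIP. ZNF146 had 3 and 0 by m6A-ORL and 2 and 3 by MeRIP. No library listed a peak in ZNF91, which represses SVA elements, in ZNF93, which represses LINE-1 elements, in the imprinted gene ZNF331 or in ZNF382.

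Genes of the pathway through which KRAB proteins act were read beside them. They were TRIM28, SETDB1, the HP1 genes CBX1, CBX3 and CBX5, ATF7IP, MPHOSPH8, TASOR, PPHLN1, MORC2, ATRX, DAXX, HDAC1, HDAC2, CHD3, CHD4, DNMT1, UHRF1, EHMT1 and EHMT2. Of these 20 genes, 14 and 14 (70% and 70%) had a peak by m6A-ORL and 13 and 13 (65% and 65%) by MeRIP. Over all protein-coding genes the shares were 25.4% and 19.5% by m6A-ORL and 38.1% and 37.4% by MeRIP. Both m6A-ORL lists held 11 of the 20 and both MeRIP lists 11 (55%), against 11.5% and 35.2% of all protein-coding genes and 7.08% and 48.75% of the ZNF members. TRIM28, the corepressor, which lies near the end of chromosome 19 (chr19:58544064-58550715), had 0 and 5 peaks by m6A-ORL and 0 and 0 by MeRIP. SETDB1 had 3 and 1 by m6A-ORL and 2 and 2 by MeRIP. CBX5, which encodes HP1 alpha, had 2 and 2 by m6A-ORL and 0 and 0 by MeRIP. MORC2, an ATPase that works with the HUSH silencing complex, had 1 and 1 by m6A-ORL and 5 and 5 by MeRIP, and TASOR, a HUSH subunit, had 4 and 1 by m6A-ORL and 6 and 5 by MeRIP.

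Clusters along the chromosome differed in how many of their genes had peaks. Neighbouring members less than 500 kb apart were joined, which gave 10 clusters of at least 5 members that hold 228 of the 240. The other 12 members lie in smaller groups, and 5 and 3 of them had a peak by m6A-ORL and 11 and 11 by MeRIP. Each cluster is called by its first and last member. Members of a cluster are not replicates, so no test was made between clusters.

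The cluster from ZNF101 to ZNF254 (19668153 to 24129968; 37 members) had the lowest MeRIP share with the full lists. In it 7 and 1 members (18.9% and 2.70%) had a peak by m6A-ORL, and 9 and 10 (24.3% and 27.0%) by MeRIP. ZNF714 held the most peaks there, with 2 and 0 by m6A-ORL and 5 and 5 by MeRIP, between 2622 and 8091 nt from its 3′ end. ZNF91 and ZNF93 lie in the same cluster. At equal list length 7 and 1 of its members had a peak by m6A-ORL and 3 and 3 by MeRIP, so m6A-ORL replicate 1 then exceeded both MeRIP lists. The MeRIP share of 8.11% was then no longer the lowest, with 5.13% from ZNF175 to ZNF331 and 0% from ZNF302 to ZNF792.

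Peaks were listed in far more members of the cluster from ZNF264 to ZNF446 (57191500 to 58489533; 41 members), close to the end of the long arm. They were 16 and 5 (39.0% and 12.2%) by m6A-ORL and 30 and 30 (73.2% and 73.2%) by MeRIP. Its median gene span was 12930 nt, beside 34630 nt in the cluster from ZNF101 to ZNF254. ZNF460, ZNF497, ZNF584, ZNF132 and ZNF274 belong to it. At equal list length 15 and 5 of its members had a peak by m6A-ORL and 15 and 15 by MeRIP.

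The cluster from ZNF628 to ZNF835 (55476617 to 56671757; 16 members) differed from the others in m6A-ORL replicate 2. There 6 and 8 members (37.5% and 50%) had a peak by m6A-ORL, and 10 and 10 (62.5% and 62.5%) by MeRIP. It supplied 20 of the 40 member peaks of m6A-ORL replicate 2 but only 8 of the 106 of replicate 1, and 26 and 21 by MeRIP. ZNF865, ZNF579, ZNF581 and ZNF784 lie in it, together with ZNF787, which had 0 and 4 peaks by m6A-ORL and 4 and 4 by MeRIP, and ZNF444, with 0 and 3 by m6A-ORL and 5 and 2 by MeRIP. Its median gene span, 11203.5 nt, was also short. It was the only one of the 10 clusters with more members in m6A-ORL replicate 2 than in replicate 1, and each of these counts rests on 1 library.

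The order of the other large clusters depended on the library and on list length. From ZNF175 to ZNF331 (51571283 to 53580269; 39 members) 9 and 2 members had a peak by m6A-ORL and 18 and 15 by MeRIP, which became 6 and 2, and 2 and 2, at equal list length. Its peaks sat farther from the 3′ end, with a median distance of 6833.5 nt by m6A-ORL and 3612 nt by MeRIP, beside 1314 nt and 1854 nt in the cluster from ZNF628 to ZNF835. Its leader by peak number, ZNF320, had 2 and 0 by m6A-ORL and 5 and 4 by MeRIP in the middle of its span, where 2 Ensembl IDs share the positions, so their gene is uncertain. From ZNF565 to ZNF573 (24 members) 7 and 1 members had a peak by m6A-ORL and 9 and 11 by MeRIP. From ZNF575 to ZNF180 (23 members) the numbers were 7 and 2 by m6A-ORL and 14 and 14 by MeRIP, and from ZNF653 to ZNF791 (25 members) 4 and 1 by m6A-ORL and 9 and 10 by MeRIP. The share in the final 10% of the span ranged among the 5 clusters with most members from 8.33% to 68.75% of m6A-ORL peaks and from 22.2% to 60.5% of MeRIP peaks. Between 6 and 32 m6A-ORL peaks stand behind each of these shares.

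The small cluster from ZNF554 to ZNF77 (2819868 to 2944971; 5 members) had the highest MeRIP share of the 10, with 2 and 0 members by m6A-ORL and 4 and 4 (80.0% and 80.0%) by MeRIP with the full lists. At equal list length 2 and 0 of its members had a peak by m6A-ORL and 1 and 1 (20% and 20%) by MeRIP, and the cluster from ZNF628 to ZNF835 then had the highest MeRIP share, at 50%. Its leader, ZNF555, had 1 and 0 peaks by m6A-ORL and 3 and 2 by MeRIP. From ZNF414 to ZNF846 (8509678 to 9786160; 13 members) 5 and 2 members had a peak by m6A-ORL and 8 and 8 by MeRIP. ZNF121 lies there, beside ZNF266, which had 3 and 0 peaks by m6A-ORL and 4 and 4 by MeRIP. The cluster from ZNF302 to ZNF792 (34675979 to 34964229; 5 members) had no member with an m6A-ORL peak, and 2 and 2 with a MeRIP peak. With so few members, a share in such a cluster has a wide interval, 28.4% to 99.5% for 4 of 5.

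**Figure D4:**
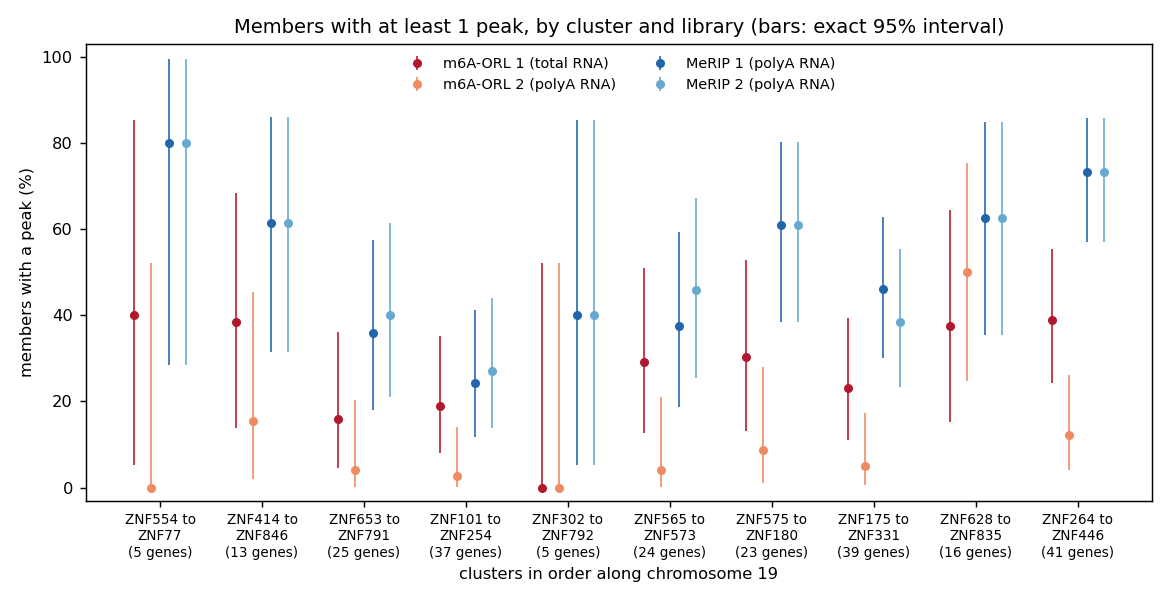
Percent of members with a peak (vertical axis) in each of the 10 clusters (horizontal axis, in chromosome order), with the 4 libraries as separate marks. MeRIP shares run from 24.3% in the cluster ZNF101 to ZNF254 upward, and in the cluster ZNF628 to ZNF835 m6A-ORL replicate 2 lies above m6A-ORL replicate 1.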

How the data were processed

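Peak lists of 4 captured HEK-293T libraries were analysed, 2 by m6A-ORL and 2 by MeRIP. The other 3 libraries of the series are inputs and were not analysed here. Each deposited list has 12 BED columns on hg38, per the file headers, with an Ensembl gene ID as name. The deposited score lies near 0, like a p-value or a q-value. The sources used here give neither which of these it is nor the peak caller, its input, its threshold or whether it ran per library. Trim Galore, STAR and HOMER are named, without role or version, per the submitters' processing notes. Scores served only to rank or filter peaks inside 1 list.

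Lines repeated exactly were dropped. The RefSeq table (GRCh38.p14, the same assembly) holds no Ensembl IDs, so an ID took the gene whose same-strand span holds at least 90% of its peak bases, a 3-fold excess of covered bases or elimination deciding conflicts; 11317 of 13566 IDs were named. Of 666 member peaks, 585 were assigned by ID, 60 by IDs that share 1 span and 21 by span and strand alone. Peaks listed under several IDs at the same site were counted once, which removed 52. Strand came from the RefSeq promoter table for 210 members and from named IDs for 13. The other 17 could take a peak from either strand and had none assigned. Of these, 15 were overlapped by no peak on either strand, and 2 (ZNF28 and ZNF600) by ambiguous peaks. Neither exon annotation nor protein sequences were used here, so the planned final-exon share was replaced by the final 10% of the span, and finger counts were not made.

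Method means were compared by exact two-sided permutation over libraries. Intervals are exact (Clopper-Pearson) 95% binomial intervals. Peak numbers, not read depth, set the precision. The assignment and the tests were checked on simulated lists. These held genes that did not overlap, each with its own ID and a known strand, and unspliced peaks. Overlapping spans, shared IDs, missing strands and spliced peaks were therefore not checked. Named genes are the 10 best-ranked members with a peak in all 4 lists, the 5 with most MeRIP peaks and no m6A-ORL peak, the member with most peaks in each cluster, and 8 chosen for textbook roles. Other members are named where a count or sequence is about them, chosen after their values were seen. The members and all lists were chosen with earlier results of these data known. Alternatives changed the score threshold, list length, assignment, overlap, 3′ end, cluster gap and libraries. Python 3.11.15, pandas 2.3.3 and scipy 1.17.1 were used.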

Additional observations from a re-analysis of the deposited data

How the results depend on the processing

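The sign of the m6A-ORL minus MeRIP difference in members with a peak held under every alternative tried, from -41.5 to -5.42 points. The same difference against all other protein-coding genes also kept its sign, from -26.2 to -3.12 points. The smallest value of each came at equal list length and rested there on m6A-ORL replicate 2. Replicate 1 (21.7% of members) then lay between the MeRIP lists (20.8% and 22.1%). Against other genes it lay above both, at 2.41 points beside -0.932 and 0.374. Leaving out replicate 2 at equal list length was not tried. Leaving out each library in turn gave -41.5 to -23.5 points, -23.5 to -11.4 points against other genes, and 3.66 to 6.73 points for the final 10% of the span. The difference in the final 10% reversed to -0.640 points for the final 20%, and was 16.0 points with the better-scored peaks of each list; the cause was not tested. The share of m6A-ORL peaks overlapped by MeRIP, 64.7% ± 3.17 (SD, n = 2), was 62.5% to 67% without each library, 53.5% when at least 50% of the peak had to overlap, and 46.7% at equal list length, where fewer MeRIP peaks remain. The span between the highest and lowest cluster was 45.0 points by m6A-ORL and 54.3 by MeRIP. It was 78.6 and 63.7 points with a gap of 250 kb, 31.4 by m6A-ORL with 1000 kb, and 50 by MeRIP at equal list length. Members with a peak in every list, an alternative chosen after seeing the data, numbered 16 to 62 without each library.

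With the replicate number as a block, the differences were -32.5, -17.4 and 5.19 points (exact sign-flip permutation p = 0.5 for each, the smallest possible). The number is only a shared label, since nothing says that it pairs the libraries. Peak lists hold no read depth, so a member without a peak may lie under the detection limit, and near-identical paralogs can share reads.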
